A study of Danio rerio with 15 samples.

Results

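Cells meet reactive oxygen species and electrophilic chemicals with a set of enzymes that work around glutathione and thioredoxin. This gene set was collected by symbol from the count tables of a study of zebrafish brain: NRF2 and KEAP1 genes, glutathione synthesis and reduction, glutaredoxins, glutathione transferases (gst), glutathione peroxidases (gpx), thioredoxins and their reductases, peroxiredoxins, superoxide dismutases with catalase, NQO1 with heme oxygenases and sestrins, and a metallothionein with ferritin heavy chains. The symbols matched 61 of the 14971 genes in the tables. These genes were picked by symbol and not by a threshold on expression, but with earlier results of these data known. They comprised 4 regulators, 4 genes of glutathione synthesis and recycling, 4 glutaredoxins, 17 glutathione transferases, 9 glutathione peroxidases, 4 thioredoxins or reductases, 6 peroxiredoxins, 4 superoxide dismutase or catalase genes, 6 quinone reductase, heme oxygenase or sestrin genes, and 3 metal-binding genes.

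Adult zebrafish were kept in water with dibromoacetonitrile (DBAN), a haloacetonitrile formed when drinking water is disinfected, and brains were taken for poly(A) RNA sequencing after 56 days. Females were kept at 0, 40 or 200 µg/L and males at 40 or 0 µg/L, which gave 5 groups of 3 libraries (15 in all). The labels give no strain and no age, and do not tell whether 1 brain or a pool went into each library. The p-values therefore speak only of the scatter among these libraries, part of which may be technical. Whole brain is a mixture of cell types, and fewer cells of a type cannot be told apart from less RNA per cell.

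As background, NRF2 (nfe2l2a in zebrafish) is a transcription factor that KEAP1 marks for destruction. Electrophiles and oxidants modify cysteines of KEAP1, and NRF2 then accumulates and turns on genes for glutathione synthesis, glutathione transferases, peroxiredoxins and quinone reductase. Glutathione transferases join glutathione to electrophiles, glutathione peroxidases and peroxiredoxins remove peroxides, and glutathione reductase and thioredoxin reductases return both thiol systems to their reduced form with NADPH. In brain, glia carry much of the glutathione system, and neurons draw on it.

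The libraries differed in depth and in how many genes they sampled, and both moved with the groups. Totals were 18365050 to 22630829 counts in female controls, 33198859 to 49388334 in females at 40 µg/L and 10488947 to 17684130 in females at 200 µg/L, so depth and dose cannot be told apart in females. Male totals overlapped, at 31576124 to 48621981 at 40 µg/L and 35666401 to 42122528 in controls, but 3123 to 5172 genes stood at 0 in the exposed males, against 1435 to 1831 in the male controls. In the exposed males a gene seen in few other libraries entered with a median of 39, 40.5 and 132 counts, against 8, 9 and 8 in the male controls, so that 1 sampled molecule may carry many counts there. A floor was therefore set for each library at 3 times that median. It came to 2.70 to 12 CPM (counts scaled to a common library size) in exposed males and 0.489 to 0.608 CPM in control males, and to between 0.733 and 4.79 CPM in the 9 female libraries. Sampling and dose cannot be told apart in males. The median behind the floor was 8, 11 and 8 counts in female controls, 28, 8 and 35 at 40 µg/L and 10, 17 and 8 at 200 µg/L. Genes at 0 numbered 2046 to 2558, 2095 to 3218 and 1998 to 3945 in the same female groups. The part of sampling in the female differences was not tested. Neuronal marker genes summed to between 8917 and 11259 CPM in all 15 libraries, which fits the labelled tissue. Within each sex these sums were lower at 40 µg/L than in controls, with no overlap.

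Of the 61 genes, 43 were above 0 in every library, 33 were at or above the floor in every library and 1, gpx2, was at 0 in all 15. The genes gsta.2, txn and sod3a were too low to test in any comparison, gpx9 was too low in either sex alone, nfe2l2b too low in females and gstt1a too low in males. That left 55 genes tested among females, 55 among males and 56 between the sexes. Levels below are CPM after trimmed-mean scaling over the 15 libraries. They are not divided by transcript length, so genes are not ranked against each other. Fold changes are on the log2 scale with an approximate standard error (SE), from edgeR's quasi-likelihood test with p-values adjusted (Benjamini-Hochberg) over all tested genes. A gene was called at an adjusted p under 0.05.

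Within females, the clearest differences lay between the 2 exposed groups. gstp1, mt2 and prdx1 were each higher at 200 than at 40 µg/L, by 2.85-fold, 8.39-fold and 2.81-fold. For all 3 the mean at 40 µg/L lay below that of the controls and the mean at 200 µg/L above it. These 3 were the called genes among the 55 tested, all of them higher, where 3.93% of all 12601 tested genes were called, 1.87% higher and 2.06% lower. Against the controls no gene of the set was called at 200 µg/L (0.0556% of all tested genes) or at 40 µg/L (0.238%). Without adjustment, 5 genes were higher and 1 lower at a p under 0.05 at 200 µg/L, beside 4.57% and 6.26% of all tested genes. At 40 µg/L 3 were higher and 8 lower, beside 7.54% and 7.80%. DESeq2 called 1 gene of the set at 200 µg/L, gstp1, among 327 of all 12601 tested genes. At 40 µg/L it called 4, fth1a, gsr, mt2 and prdx1, among 795 of all tested genes. The 3 female comparisons share libraries and are not independent of each other.

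gstp1 encodes the pi-class glutathione transferase, an enzyme that conjugates electrophiles and a known NRF2 target in zebrafish. It lies on chromosome 14 from 3507305 to 3514045 in the coordinates of the deposited tables, and no source used here names their build. Its paralog gstp2 lies beside it, and reads that match both could be split between them. It stood at 113, 175 and 136 CPM in control females, at 107, 80.4 and 93.3 CPM at 40 µg/L and at 332, 212 and 254 CPM at 200 µg/L. Every library at 200 µg/L lay above all 6 other female libraries, and every library at 40 µg/L below all 3 controls. The difference between 200 and 40 µg/L was 1.51 ± 0.23 (SE, n = 3 each, edgeR adjusted p = 0.0145). Against the controls it was 0.91 ± 0.23 at 200 µg/L (edgeR adjusted p = 0.176) and -0.60 ± 0.23 at 40 µg/L (edgeR adjusted p = 0.238), neither of which passed the test. In males gstp1 was at 71.5, 179.7 and 133 CPM at 40 µg/L, against 165, 147 and 158 CPM in controls. These male groups overlapped.

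mt2 encodes metallothionein, a small cysteine-rich protein that binds zinc and copper (chromosome 18, 17534636 to 17536313). It stood at 21.3, 25.8 and 8.44 CPM in control females, at 3.32, 4.88 and 3.26 CPM at 40 µg/L and at 31.9, 13.9 and 50.2 CPM at 200 µg/L. All 3 libraries at 40 µg/L were lower than any control, while 2 of the 3 at 200 µg/L were higher than any control. The difference between 200 and 40 µg/L was 3.07 ± 0.55 (SE, n = 3 each, edgeR adjusted p = 0.0218), and that of 40 µg/L against controls, -2.28 ± 0.54, missed the threshold (edgeR adjusted p = 0.0806). The table also lists mt2 on an alternative contig, and reads that match both copies make its level less certain. In males it was low in both groups, at 3.43, 1.0 and 5.45 CPM at 40 µg/L against 10.7, 2.36 and 3.85 CPM in controls, and all 3 exposed values were below their floors.

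prdx1 encodes a cytosolic peroxiredoxin that reduces hydrogen peroxide with thioredoxin (chromosome 2, 6106491 to 6115689). It stood at 84.3, 65.4 and 59.8 CPM in control females, at 47.6, 29.5 and 23.0 CPM at 40 µg/L and at 93.5, 106 and 81.6 CPM at 200 µg/L. The 40 µg/L libraries lay apart below both other groups, while the lowest library at 200 µg/L was under the highest control. The difference between 200 and 40 µg/L was 1.49 ± 0.28 (SE, n = 3 each, edgeR adjusted p = 0.0242), and that between 40 µg/L and controls was -1.06 ± 0.28 (edgeR adjusted p = 0.110). In males prdx1 was at 19.2, 58.3 and 46.0 CPM at 40 µg/L, against 71.4, 40.3 and 98.5 CPM in controls, and the groups overlapped.

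The 3 calls rested on few libraries. None was made when replicate 1 or 3 at 40 µg/L or replicate 3 at 200 µg/L was left out. Calls over all tested genes fell from 495 to 11, 33 and 1 in the same order, so this loss was not particular to these genes. With 1 library left out the adjusted p ranged from 0.0133 to 0.0647 for gstp1, from 0.0133 to 0.0971 for mt2 and from 0.0375 to 0.0831 for prdx1 (edgeR). Replicate 1 at 200 µg/L, which had the highest gstp1, also had the highest sums for vessel and meninges markers (504 CPM, against 103 to 141 CPM in the controls and 40 µg/L libraries and the other 2 at 106 and 131 CPM) and for skeletal muscle markers (294 CPM, against 33.8 to 74.7 CPM in the other female libraries). Its erythrocyte markers summed to 14893 CPM, the highest of the 15 libraries, against 1346 and 1885 CPM in the other 2 at 200 µg/L. All 3 genes were called without that library, among 243 of all tested genes. Radial glia markers summed to 2768 to 3518 CPM at 200 µg/L and 2079 to 2800 CPM at 40 µg/L, and oligodendrocyte markers to 727 to 1439 CPM and 576 to 781 CPM in the same groups. None of the radial glia or oligodendrocyte markers in the files was at 0 in all 3 libraries of either group. The part of these cell types in the 3 differences was not tested.

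**Figure D1:**
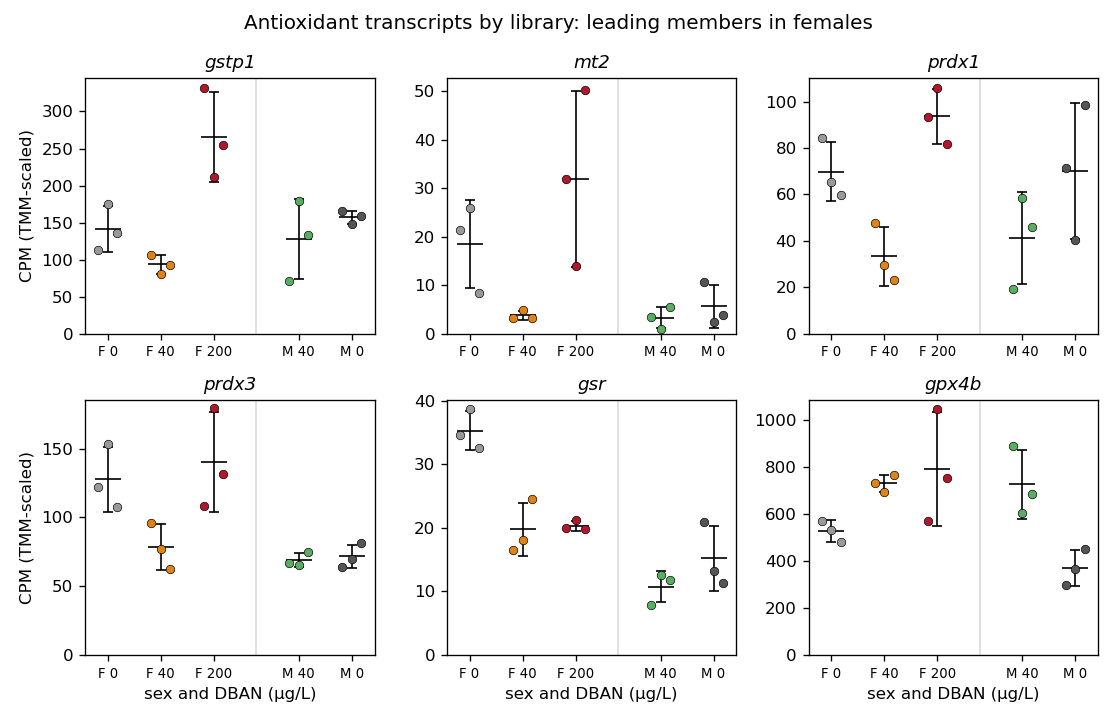
CPM (vertical axis) of 6 genes in each library (points), with the group mean and SD (line and bars, n = 3), for females (F) at 0, 40 and 200 µg/L and males (M) at 40 and 0 µg/L. The means of gstp1, mt2 and prdx1 are lowest at 40 µg/L and highest at 200 µg/L among females, whereas gsr is below the female controls at both doses.

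gsr, which encodes glutathione reductase, followed gstp1 in p at 200 µg/L and was lower at both doses (chromosome 14, 38852969 to 38873095). Its libraries stood at 34.6, 38.6 and 32.6 CPM in control females, at 16.5, 18.2 and 24.5 CPM at 40 µg/L and at 20.0, 21.2 and 19.8 CPM at 200 µg/L. Each exposed library was below each control, and the exposed groups overlapped. The differences from controls were -0.79 ± 0.26 at 200 µg/L (edgeR adjusted p = 0.296) and -0.83 ± 0.26 at 40 µg/L (edgeR adjusted p = 0.152), so neither passed. The other genes of glutathione synthesis and recycling showed no such separation. gclc, the catalytic subunit of the enzyme for the first step of synthesis, was at 104, 113 and 114 CPM in control females, at 92.0, 117 and 131 CPM at 40 µg/L and at 109, 109 and 105 CPM at 200 µg/L. The 3 groups overlapped throughout. gclm, its modifier subunit, ranged from 15 to 33.7 CPM over the 9 female libraries, and gss, the enzyme of the second step, was at or below 3.28 CPM in all of them.

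None of the 7 tested glutathione peroxidases was called at 200 µg/L. All 7 had a positive log2 difference against the controls, with a median of 0.58, where 50.2% of all tested genes were positive. All 7 were also positive against 40 µg/L, with a median of 0.39, beside 50.4% of all tested genes. Of the 7, gpx7 (2.24, 0 and 0 CPM at 200 µg/L, against 0, 0.896 and 0 CPM in controls) and gpx8 (2.41, 0 and 1.33 CPM, against 1.82, 1.05 and 0.489 CPM) were below the floor in most of these libraries. Groups were apart for 0 of the 7 peroxidases in either comparison, beside 17.9% of all tested genes against controls and 25.3% against 40 µg/L. gpx4b, which reduces lipid hydroperoxides in membranes, stood at 571, 533 and 480.2 CPM in control females, at 733, 694 and 766 CPM at 40 µg/L and at 568, 1049 and 752 CPM at 200 µg/L. At 40 µg/L every library was above every control, and at 200 µg/L replicate 1 lay inside the control range. The differences from controls were 0.58 ± 0.21 at 200 µg/L (edgeR adjusted p = 0.342) and 0.47 ± 0.21 at 40 µg/L (edgeR adjusted p = 0.313). Replicate 2 at 200 µg/L, the shallowest of the 15 libraries, held the highest value of all libraries for gpx3, a secreted peroxidase (241 CPM), and for gpx4a, the other gpx4 copy (488 CPM). It was also highest for gpx1b (71.1 CPM) and gpx4b (1049 CPM). Replicates 1 and 3 lay below the control mean for gpx4a (126 and 174.5 against 193 CPM) and gpx1b (26.2 and 17.2 against 32.1 CPM). Their positive signs therefore rested on replicate 2. For gpx3 and gpx4b replicates 1 and 3 lay above the control mean.

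prdx3, the mitochondrial peroxiredoxin, followed prdx1 in order of means, at 122, 154 and 108 CPM in control females, 96.1, 76.9 and 62.3 CPM at 40 µg/L and 108, 179.8 and 132 CPM at 200 µg/L. Both the controls and the 200 µg/L libraries lay above all 3 at 40 µg/L, and they overlapped each other. The difference between 200 and 40 µg/L was 0.84 ± 0.25 (edgeR adjusted p = 0.0879) and did not pass. prdx6, a peroxiredoxin that uses glutathione, ran the other way, with a difference of -1.25 ± 0.41 (edgeR adjusted p = 0.113), and is listed only on an alternative contig. sod1, the cytosolic superoxide dismutase, stood at 399.9, 335 and 325 CPM in control females, at 361, 453 and 338 CPM at 40 µg/L and at 446, 449 and 414 CPM at 200 µg/L. Its 200 µg/L libraries lay above all controls but overlapped those at 40 µg/L, and the difference from controls was 0.31 ± 0.17 (edgeR adjusted p = 0.557).

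Over the whole set in females the median log2 difference was 0.19 at 200 µg/L against controls (37 of 55 positive), 0.00 at 40 µg/L against controls (27 of 55 positive) and 0.18 between 200 and 40 µg/L (37 of 55 positive). The medians of all tested genes were 0.00, -0.03 and 0.01 in the same 3 comparisons. Groups did not overlap for 9 of the 55 at 200 µg/L against controls, 7 higher and 2 lower, beside 17.9% of all tested genes (7.52% higher, 10.4% lower). At 40 µg/L they did not overlap for 21, 11 higher and 10 lower, beside 25.0% of all tested genes (11.3% and 13.7%). Between 200 and 40 µg/L they did not overlap for 15, 13 higher and 2 lower, beside 25.3% of all tested genes (11.9% and 13.4%). Among females the NRF2 targets nqo1 and hmox1a were below the floor only in replicates 1 and 3 at 40 µg/L. nqo1, a quinone reductase, stood at 3.87, 2.79 and 2.32 CPM in controls. It was at 0, 0.977 and 1.34 CPM at 40 µg/L and at 2.41, 12 and 3.49 CPM at 200 µg/L. hmox1a, an inducible heme oxygenase, stood at 3.83, 4.165 and 1.83 CPM in controls. It was at 1.29, 2.08 and 1.76 CPM at 40 µg/L and at 2.41, 7.14 and 8.38 CPM at 200 µg/L. For both genes every library at 200 µg/L lay above every library at 40 µg/L. Neither difference passed (edgeR adjusted p = 0.236 for nqo1 and 0.201 for hmox1a).

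In males at 40 µg/L, 11 of the 55 tested genes were called, 4 higher and 7 lower than in male controls, where 15.6% of all 12454 tested genes were called, 8.38% higher and 7.25% lower. The higher genes were keap1b, gstz1, gpx4b and fth1a. The lower ones were nfe2l2b, glrx3, gsto1, gstr, txnrd2.2, txnrd3 and sesn1. Neither the peroxiredoxins (0 of 6), the superoxide dismutases and catalase (0 of 3) nor the genes of glutathione synthesis and recycling (0 of 4) held a called gene. Groups did not overlap for 22 of the 55, 9 higher and 13 lower, beside 44.6% of all tested genes (17.0% and 27.6%). The median log2 difference of the set was -0.01, and that of all tested genes was -0.16.

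Among the regulators, keap1b encodes a KEAP1 protein, the inhibitor of NRF2 (chromosome 6, 131998 to 138262). It stood at 152, 146 and 190.1 CPM at 40 µg/L, against 72.9, 91.0 and 106 CPM in control males. Every exposed library lay above every male control and above all 9 female libraries. The difference was 0.86 ± 0.19 (SE, n = 3 each, edgeR adjusted p = 0.0321). keap1a, the other KEAP1 copy, was at 15.3, 22.7 and 22.8 CPM, against 18, 21.8 and 15 CPM, and the groups overlapped. nfe2l2a, the NRF2 gene itself, was at 13.4, 18.2 and 3.51 CPM in exposed males, against 17.5, 18.5 and 19.3 CPM in control males. Only replicate 3 lay far below the controls, and it was under its own floor.

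nfe2l2b is a second NRF2 gene, described in zebrafish embryos as a negative regulator of NRF2 target genes. It had 0 counts in all 3 exposed male libraries and 68, 60 and 60 counts (1.39, 1.23 and 1.52 CPM) in the controls. It passed the test (edgeR adjusted p = 0.0460), but the control levels were all below the floors of the exposed libraries, 2.70 to 12 CPM, so no fold change is given and a lower level in exposed males was not detectable in these libraries. gstp2, a second pi-class transferase, was likewise at 0 in the 3 exposed libraries and at 1.55, 0.514 and 0.785 CPM in control males, and it missed the threshold (edgeR adjusted p = 0.0526).

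Among the transferases, 1 of the 15 tested in males was called higher and 2 lower, beside 8.38% and 7.25% of all tested genes. gstz1 encodes the zeta-class enzyme, which isomerises maleylacetoacetate in tyrosine breakdown and in mammals also acts on small haloacids (chromosome 17, 45106424 to 45113806). It stood at 74.0, 44.1 and 70.8 CPM at 40 µg/L, against 15.4, 24.1 and 25.5 CPM in control males. All 3 exposed libraries lay above all controls, with replicate 2 nearest to them. The difference was 1.54 ± 0.30, or 2.90-fold (SE, n = 3 each, edgeR adjusted p = 0.0214).

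gstr, the rho class found in fish, stood at 66.0, 92.4 and 64.7 CPM at 40 µg/L, against 121, 134 and 152 CPM in control males (chromosome 19, 770384 to 775538). gsto1, an omega-class enzyme with reductase activity, stood at 18.2, 27.4 and 25.8 CPM, against 57.3, 51.3 and 42.5 CPM (chromosome 13, 25380505 to 25389050). Neither gene's groups overlapped. The differences were -0.87 ± 0.20 for gstr (edgeR adjusted p = 0.0335) and -1.08 ± 0.26 for gsto1 (edgeR adjusted p = 0.0353). gstm.1, one of the mu-class genes that lie side by side on chromosome 8, was at 20.0, 18.1 and 20.0 CPM in exposed males, against 58.5, 22.1 and 35.4 CPM in control males, a difference of -1.01 that did not pass (edgeR adjusted p = 0.120).

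Of the lower genes, 1 was among the 4 tested glutaredoxins and 2 among the 3 tested thioredoxins and reductases, beside 7.25% of all tested genes. glrx3, a glutaredoxin that carries iron-sulfur clusters, had the smallest p of the set (chromosome 12, 42369566 to 42396927). It stood at 51.9, 56.0 and 61.3 CPM at 40 µg/L, against 96.9, 102 and 112 CPM in control males, and both groups were narrow and well apart. The difference was -0.88 ± 0.17 (SE, n = 3 each, edgeR adjusted p = 0.0186). txnrd3, a thioredoxin reductase, stood at 82.0, 99.1 and 73.5 CPM at 40 µg/L, against 128, 139 and 170.4 CPM in control males (chromosome 6, 1161224 to 1187749). The groups did not overlap, and the difference was -0.78 ± 0.19 (edgeR adjusted p = 0.0371).

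txnrd2.2, named for the mitochondrial thioredoxin reductase, stood at 7.91, 4.34 and 4.15 CPM at 40 µg/L, against 32.2, 23.1 and 11.6 CPM in control males (chromosome 5, 15305190 to 15350252). Its exposed libraries were all below its controls, and replicate 3 was below its own floor of 12 CPM. The difference was -2.04 ± 0.52 (edgeR adjusted p = 0.0433). txn2, the mitochondrial thioredoxin, was at 109.8, 116 and 107 CPM in exposed males, against 61.9, 47.0 and 88.6 CPM in control males. These groups were apart too, but the difference of 0.75 missed the threshold (edgeR adjusted p = 0.0817).

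gpx4b, the membrane lipid peroxidase (chromosome 2, 56642138 to 56655769), stood at 889, 603 and 687 CPM at 40 µg/L, against 298, 367 and 451 CPM in control males. fth1a, a ferritin heavy chain that oxidises and stores iron (chromosome 7, 12927977 to 12936708), stood at 2672, 1866 and 2447 CPM, against 1172, 1390.0 and 1330.1 CPM. All exposed libraries lay above all controls for both genes. The differences were 0.96 ± 0.21 for gpx4b (edgeR adjusted p = 0.0280) and 0.84 ± 0.17 for fth1a (edgeR adjusted p = 0.0221). fth1b, the other ferritin heavy chain, was at 78.9, 71.8 and 59.5 CPM in exposed males, against 54.1, 46.4 and 59.8 CPM in control males, and these groups overlapped.

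sesn1 encodes a sestrin, a p53-responsive inhibitor of mTORC1 signalling (chromosome 20, 32224405 to 32230287). It stood at 60.6, 66.1 and 35.3 CPM at 40 µg/L, against 147, 121 and 96.6 CPM in control males. The groups did not overlap, and the difference was -1.18 ± 0.29 (edgeR adjusted p = 0.0408). The other sestrins also had no overlap but did not pass: sesn2 was at 8.10, 9.03 and 7.39 CPM, against 16.6, 21.6 and 14.9 CPM in control males (edgeR adjusted p = 0.0721), and sesn3 at 8.29, 14.0 and 22.4 CPM, against 41.2, 49.3 and 22.5 CPM (edgeR adjusted p = 0.0964). The sesn2 value of exposed replicate 3 was below that library's floor.

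**Figure D2:**
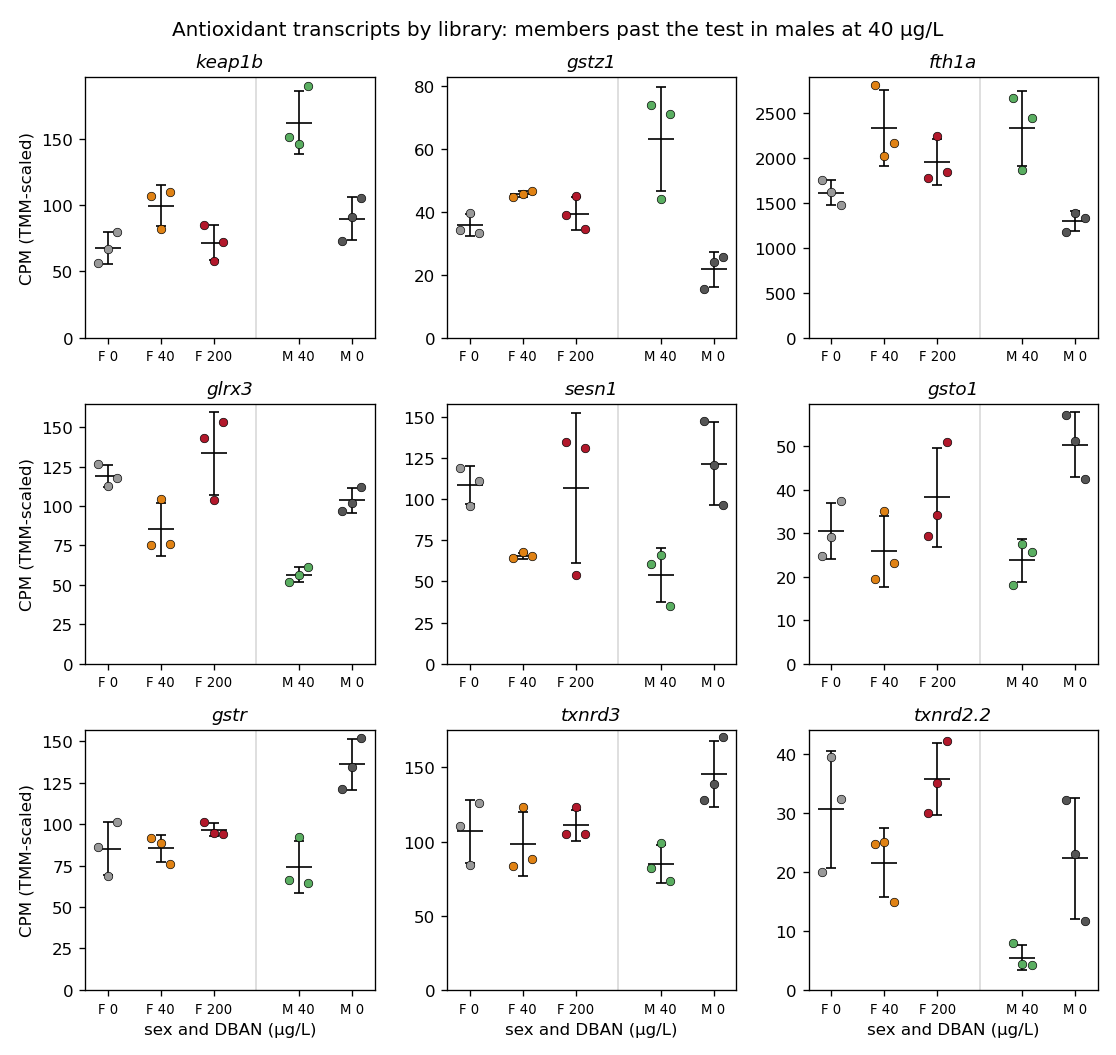
CPM (vertical axis) of 9 of the genes called in males, in each library (points), with the group mean and SD (line and bars, n = 3), for females (F) and males (M) by µg/L of DBAN. keap1b, gstz1 and fth1a are higher at M 40 than at M 0 in every library, and the other 6 are lower in every library. nfe2l2b, at 0 counts in the exposed libraries, and gpx4b, drawn with the female genes, are not in these panels.

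The male calls were also sensitive to single libraries. Leaving out control replicate 1 or 2 left 0 of the 11, leaving out control replicate 3 left gpx4b alone and leaving out exposed replicate 1 left glrx3 alone. Calls over all tested genes also fell, from 1947 to 360, 286, 705 and 1154 in the same order. Without exposed replicate 3, the library with 5172 genes at 0, 4 genes were called, glrx3, gstz1, nfe2l2b and gstcd, among 1647 of all tested genes. Without exposed replicate 2, 13 were called, among 3144 of all tested genes, with txnrd2.2 lost and gclc, gpx7 and gstp2 gained. Of these, gpx7 and gstp2 were at 0 in the exposed libraries left in that fit. txnrd2.2 was not called when any 1 of the 6 male libraries was left out, with adjusted p-values of 0.0543 to 0.178 (edgeR). None of the 11 changed direction, but their groups did not overlap, so leaving out 1 library could hardly reverse it. Radial glia markers summed to 2099 to 2999 CPM in exposed males and 3676 to 4401 CPM in control males, with no overlap and with none of the 10 markers at 0 in all 3 libraries of either group. Neuron markers summed to 8917 to 10454 CPM and 10867 to 11259 CPM in the same groups, also with no overlap. Muscle markers summed to 58.6 to 120 CPM and 20.2 to 31.9 CPM in the same groups. Of the 10 muscle markers, 3 were at 0 in all 3 exposed libraries, and none was at 0 in all 3 controls. Erythrocyte markers summed to 5720 to 10949 CPM and 1251 to 7518 CPM, which overlapped. The part of these cell types in the 11 differences was not tested.

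**Figure D3:**
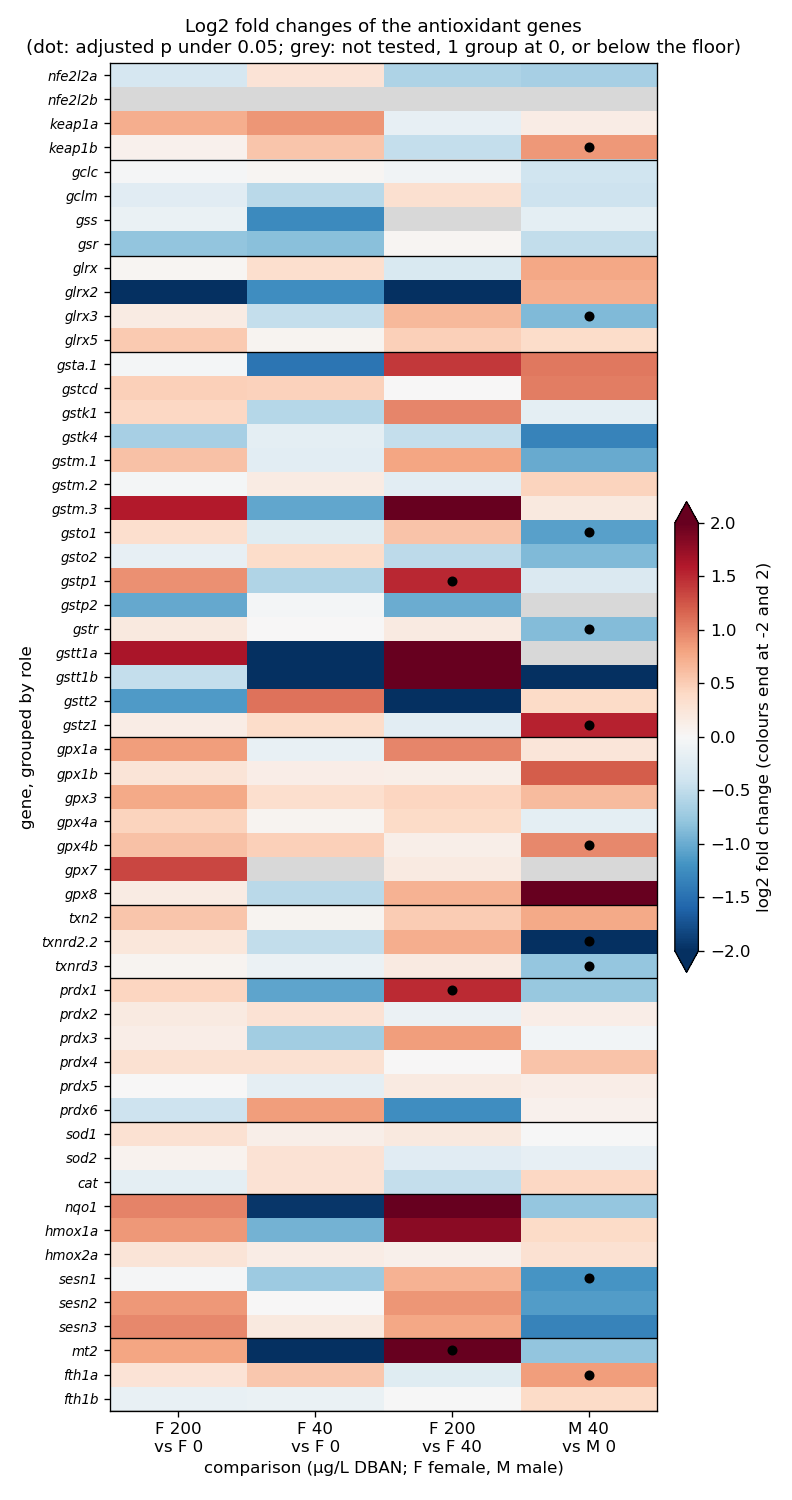
Log2 fold change of each gene (rows, grouped by role) in 4 comparisons (columns), red for higher and blue for lower, with colours ending at -2 and 2. Dots mark an adjusted p under 0.05, and grey marks genes not tested, with 1 group at 0 in every library, or with both groups below the floor. Dots fall on 3 genes in the third column and 10 in the fourth, which leaves out nfe2l2b.

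The dose of 40 µg/L was given to both sexes, and the 2 comparisons at that dose share no library. Of the 10 called male genes that were also tested in females, 9 had the same sign in females, and gstr was at 0.00 there. The share of same signs among all genes called in males was not computed. The trimmed-mean scaling factors also shifted alike in both sexes. They were 0.864 to 0.987 at 40 µg/L and 1.033 to 1.084 in controls for females. For males they were 0.813 to 0.924 and 1.107 to 1.202. The part of this shift in the same signs was not tested. In females none of the 10 was called. Without overlap in both sexes, 6 genes were higher at 40 µg/L, cat, fth1a, gpx4b, gstz1, keap1b and prdx4, out of 54 tested in both (6.25% of all genes tested in both). In the same way 2 were lower, glrx3 and sesn1 (6.84%). None separated in opposite directions (0.429% and 0.297%). Of all 12129 genes tested in both sexes, 758 were higher and 830 lower in both, and 52 and 36 separated in opposite directions. Agreement between the sexes was therefore not particular to this set.

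For fth1a the female difference was 0.54 ± 0.17 (edgeR adjusted p = 0.157), with 2814, 2025 and 2162 CPM at 40 µg/L, against 1748, 1615 and 1473 CPM in control females. For keap1b it was 0.56 ± 0.22 (edgeR adjusted p = 0.256), with 107, 82.2 and 110.2 CPM at 40 µg/L, against 56.3, 66.9 and 79.9 CPM in control females. For sesn1 it was -0.72 ± 0.30 (edgeR adjusted p = 0.275), with 64.3, 67.8 and 65.3 CPM, against 119, 95.9 and 111 CPM. In each of these genes all exposed females lay on one side of all control females. For glrx3 it was -0.48 ± 0.21 (edgeR adjusted p = 0.310), with 75.2, 105 and 76.1 CPM, against 126, 113 and 118 CPM. For gstz1 it was 0.36 ± 0.21 (edgeR adjusted p = 0.484), with 44.7, 45.6 and 46.5 CPM, against 34.3, 39.5 and 33.1 CPM. Both were again apart in every library. Sums of cell type markers also separated these groups. Radial glia markers summed to 2079 to 2800 CPM at 40 µg/L and 2813 to 3145 CPM in control females. Neuron markers summed to 9606 to 9917 CPM and 10164 to 10972 CPM, and oligodendrocyte markers to 576 to 781 CPM and 899 to 1206 CPM. Skeletal muscle markers summed to 59.3 to 74.7 CPM and 33.8 to 56.0 CPM. Of the 10 muscle markers, 1 was at 0 in all 3 libraries at 40 µg/L, and none was at 0 in all 3 controls. Erythrocyte markers summed to 1951 to 12762 CPM at 40 µg/L and 961 to 2123 CPM in control females, which overlapped. The part of these cell types in the female differences at 40 µg/L was not tested. At 200 µg/L fth1a, keap1b, sesn1, glrx3 and gstz1 were nearer to the female controls, and none was called. Their log2 differences were 0.28, 0.09, -0.02, 0.17 and 0.15. Of the other genes apart in both sexes, gpx4b and prdx4 were not nearer. They were at 0.58 and 0.31 at 200 µg/L, against 0.47 and 0.30 at 40 µg/L. For cat the difference was -0.19 at 200 µg/L and 0.29 at 40 µg/L.

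**Figure D4:**
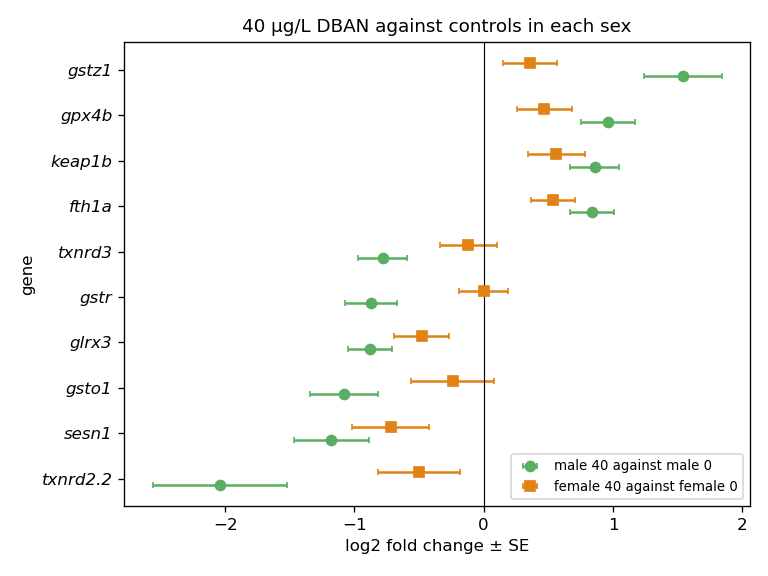
Log2 fold change at 40 µg/L against controls (horizontal axis, point and SE) for 10 genes called in males, in males (circles) and females (squares). The points lie on the same side of 0 in both sexes for 9 genes, and gstr is at 0.00 in females.

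The difference between the sexes in the effect of 40 µg/L was tested directly, as the female minus the male log2 difference. No gene of the set passed it, 0 of 56, as for all 13149 tested genes (0%). At an unadjusted p under 0.05 there were 4 positive and 2 negative genes of the set (7.94% and 6.58% of all tested genes). DESeq2 called 0 of the set, but 456 of all 13149 tested genes. The smallest p was that of gstz1, with -1.18 ± 0.36 (edgeR adjusted p = 0.186), followed by gstr with 0.87 ± 0.29 (edgeR adjusted p = 0.212) and txnrd2.2 with 1.53 ± 0.60 (edgeR adjusted p = 0.281). txnrd2.2 stood at 24.8, 25.1 and 14.9 CPM in exposed females, against 19.9, 39.4 and 32.4 CPM in control females, which overlapped. gstr was at 91.4, 88.6 and 76.0 CPM in exposed females, against 86.2, 68.6 and 101 CPM in control females, also overlapping.

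Between unexposed females and males, 1 of 56 tested genes was called, beside 4.40% of all tested genes (2.31% higher and 2.09% lower in females). It was prdx3 (chromosome 13, 9842413 to 9851482), at 122, 154 and 108 CPM in control females, against 63.9, 69.9 and 81.1 CPM in control males. No female value reached down to a male one, and the difference was 0.84 ± 0.20 (SE, n = 3 each, edgeR adjusted p = 0.0407). The same groups were apart in depth, with 18365050 to 22630829 counts in control females and 35666401 to 42122528 in control males, so depth and sex cannot be told apart here. They were apart in radial glia markers (2813 to 3145 CPM in control females, 3676 to 4401 CPM in control males). They were also apart in oligodendrocyte markers (899 to 1206 CPM and 1209 to 1245 CPM) and in muscle markers (33.8 to 56.0 CPM and 20.2 to 31.9 CPM). The part of these cell types in the difference was not tested. The prdx3 call was not made when any 1 of the 6 control libraries was left out, with adjusted p-values of 0.0572 to 0.181 (edgeR). At 40 µg/L the values were 96.1, 76.9 and 62.3 CPM in females, against 67.1, 65.1 and 74.7 CPM in males.

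gsr and sesn3 had the next smallest p-values between the control sexes. gsr was at 34.6, 38.6 and 32.6 CPM in control females, against 21.0, 13.3 and 11.3 CPM in control males, a difference of 1.22 ± 0.32 (edgeR adjusted p = 0.0502). sesn3 was at 10.5, 9.91 and 15.5 CPM in control females, against 41.2, 49.3 and 22.5 CPM in control males, a difference of -1.65 ± 0.47 (edgeR adjusted p = 0.0634). Both sets of libraries were apart, and neither passed the test. Groups did not overlap for 22 of the 56 genes, 14 higher and 8 lower in females, beside 39.9% of all tested genes (18.9% and 20.9%).

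Some genes varied little between libraries and others mostly by library. Among the 33 genes above the floor throughout, the SD of log2(CPM + 1) within groups was smallest for prdx5 and sod1, at 0.14 each, and largest for gpx1a, at 1.0. prdx5, a peroxiredoxin of mitochondria, peroxisomes and cytosol, was at 363, 372 and 344 CPM in control females, at 337, 299 and 317 CPM at 40 µg/L and at 329.8, 354 and 391 CPM at 200 µg/L. In males prdx5 was at 332, 268 and 324 CPM at 40 µg/L, against 246, 268 and 323 CPM in controls, and sod1 was at 357, 326 and 348 CPM, against 321, 346 and 368 CPM. Both overlapped between the male groups.

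gpx1a, a cytosolic glutathione peroxidase listed on a chromosome and on an alternative contig, ranged from 13.8 to 119 CPM over the 15 libraries, from 21.8 to 119 CPM at 200 µg/L alone and from 13.8 to 63.6 CPM in control males alone. hmox2a, the constitutive heme oxygenase, is listed only on an alternative contig. It was at 66.6, 123 and 138 CPM in control females, at 126, 163 and 73.2 CPM at 40 µg/L and at 124, 107 and 156 CPM at 200 µg/L. In males it was at 213, 128 and 6.39 CPM at 40 µg/L, against 73.4, 89.6 and 117 CPM in controls. The value of exposed replicate 3 lay under that library's floor of 12 CPM, as did its values for nfe2l2a and for gstcd (4.48 CPM), a gene named for its transferase-like domain, so the size of these drops was not measured.

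A list of other genes of these pathways, written with earlier results of these data known, held 82 symbols, of which 69 were in the files. None of the 66 tested in females was called at either dose against controls. Between 200 and 40 µg/L 4 of the 66 were called, 3 higher and 1 lower, beside 3.93% of all tested genes (1.87% and 2.06%). txndc5, a thioredoxin-domain protein of the endoplasmic reticulum, was at 36.7, 30.5 and 36.0 CPM at 200 µg/L, against 6.95, 15.9 and 8.27 CPM at 40 µg/L (1.73 ± 0.35, edgeR adjusted p = 0.0281). txndc12, another such protein, was at 64.0, 75.5 and 84.5 CPM, against 21.6, 26.4 and 39.6 CPM (1.36 ± 0.25, edgeR adjusted p = 0.0240). slc40a1, the iron exporter ferroportin, was higher by 1.09 (edgeR adjusted p = 0.0402), and abcc5, an efflux transporter, was lower, by -1.02 (edgeR adjusted p = 0.0242). As with gstp1 and prdx1, txndc5, txndc12 and slc40a1 had their lowest female values at 40 µg/L.

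In males 7 of the 67 tested genes of that list were called, 3 higher and 4 lower, beside 15.6% of all tested genes (8.38% and 7.25%). slc3a2b, the heavy chain of the cystine importer, was at 39.1, 32.6 and 34.6 CPM at 40 µg/L, against 105, 84.1 and 62.1 CPM in control males (-1.25 ± 0.25, edgeR adjusted p = 0.0216). nnt, a mitochondrial transhydrogenase that makes NADPH, was at 103.7, 166 and 183.9 CPM, against 388, 319 and 351 CPM (-1.22 ± 0.24, edgeR adjusted p = 0.0218). lancl1, a LanC family protein that binds glutathione, was lower by -0.80 (edgeR adjusted p = 0.0195), and msra, which repairs oxidised methionine, was higher by 1.19 (edgeR adjusted p = 0.0356). Between control females and males 3 of 68 were called, beside 4.40% of all tested genes, with oxr1b higher (1.18, edgeR adjusted p = 0.0492) and nnt and taldo1, an enzyme of the pentose phosphate pathway, lower in females (-1.37 and -1.03, edgeR adjusted p = 0.0138 and 0.0177). None of the 68 was called for the difference between the sexes in the effect of 40 µg/L.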

How the data were processed

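The authors deposited raw gene counts in 2 tables, and the 3 female control columns that both hold are identical and were used once. Per the submitters' processing notes the tools were STAR, StringTie, DESeq2, FastQC and Picard, whose versions and roles, like the build and annotation, are not given in the sources used here. No per-sample column was left unused. Counts as deposited were filtered (filterByExpr), scaled (TMM) and tested with edgeR 4.0.16 in R 4.3.3 (quasi-likelihood F test, robust, Benjamini-Hochberg over all tested genes) in 3 fits: 9 female libraries (12601 genes), 6 male libraries (12454 genes) and the 12 libraries at 0 and 40 µg/L (13149 genes). The SE is the log2 fold change over the square root of F. Printed CPM use TMM factors of all 15 libraries, while each fit scales its own, so ratios of printed means can differ slightly from fitted folds. Of counts from 1 to 40, 40.5% to 49.6% per library are multiples of 4, where an even spread gives 25%. Small counts therefore cannot be taken as independent reads, and the cause was not tested. Strand of the counting is not stated. Genes listed more than once under 1 symbol are 1 row here. Named are genes called in any of the 6 comparisons, the 3 with the smallest p in each, and the 1 with the highest mean CPM per role. Others are named to account for the set and were chosen after their values were seen. The members and lists were chosen with earlier results of these data known. The scripts were tested on simulated data. Alternatives were median-of-ratios scaling, no filter, DESeq2 1.42.0, other libraries in the fit, a replicate block, counts divided by 4, females at 40 µg/L by replicate 2 alone, and leaving out each library.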

Additional observations from a re-analysis of the deposited data

How the results depend on the processing

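The counts of called genes of the set depended on the test and on single libraries. Under the alternatives the 15 calls gave 183 values, of which 99 stayed past the threshold and 84 did not. All 183 kept the direction. The groups did not overlap for any of the 15, so leaving out 1 library could hardly reverse it, and the other alternatives refit the same counts. The kept direction is therefore no support for the calls. With DESeq2 the set had 1 call for females at 200 µg/L against controls (0 with edgeR), 4 at 40 µg/L against controls (0 with edgeR) and 9 between 200 and 40 µg/L (3 with edgeR). In males at 40 µg/L DESeq2 called 15 of the set, 5 higher and 10 lower (11 with edgeR), among 3072 of all tested genes. The genes it added were gstp2, sesn2, sesn3 and txn2. Between control females and males DESeq2 and the fit of those 2 groups alone each gave 7, counts divided by 4 gave 2 and edgeR as reported gave 1. The call count for 200 against 40 µg/L was 1 in a fit of those 2 groups alone and 0 with females at 40 µg/L by replicate 2 alone. Leaving out 1 library gave 0 to 0 calls for either dose against control females, 0 to 4 between the doses, 0 to 13 in males, 0 to 1 for the difference between sexes (gstz1, without exposed male replicate 2) and 0 to 0 between control females and males. Same-numbered libraries correlated at -0.13 to 0.10 in their deviations from group means over all tested genes. Differently numbered libraries were not set beside them, and the labels do not say whether a number marks a shared tank or batch. Whether the numbers pair the samples is therefore not settled. With a replicate block the set had 3 calls in males (11 without it), 2 between the female doses (3) and 0 between control sexes (1). Over all tested genes the count at 200 µg/L against controls was 7 (DESeq2 327, replicate block 2, the 2 groups alone 4), at 40 µg/L 30 (DESeq2 795, no filter 98, counts divided by 4 125, replicate block 0, the 2 groups alone 19, replicate 2 alone 0) and between the doses 495 (DESeq2 1379, replicate block 76, the 2 groups alone 61, replicate 2 alone 6). It was 1947 in males (DESeq2 3072, replicate block 973), 0 for the difference between sexes (DESeq2 456, all 15 libraries 3) and 579 between control sexes (DESeq2 1644, replicate block 283, the 2 groups alone 1982). With 1 library left out these ranged over 1 to 10, 0 to 289, 1 to 596, 286 to 3144, 0 to 369 and 0 to 286 in the same order. The cause of these shifts was not tested. The floor, which did not follow depth, limits nfe2l2b and gstp2 in males and nqo1, hmox1a and gss in females.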
